A study of Mus musculus with 36 samples.

Results

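Apoe, Lrp1, Cd9, Cd63 and Spp1 were followed through precipitates of ribosome-bound RNA from mouse brain. They are 5 of the 12173 genes listed in both deposited count tables, and they were chosen by symbol from the genes tied to lipoprotein handling and to the disease-associated state of microglia. All 5 were listed in both tables, and all 5 passed the filter on low counts. The mice carried a Ribo-tag allele, which adds a haemagglutinin (HA) epitope to the ribosomal protein Rpl22 once Cre has acted, and Cre was split into fragments driven by different genes. The Sall1 mice were CX3CR1-CCre+/-:Sall1-NCre+/-:Ribo-tag+/- and are labelled Sall1+ microglia. The Lyve1 mice were CX3CR1-CCre+/-:Lyve1-NCre+/-:Ribo-tag+/- and are labelled Lyve1+ macrophage. RNA was precipitated from homogenised hemibrains with anti-HA antibody, or with IgG as the control for RNA that binds without the tag.

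The 32 libraries fall into 6 groups, named here by mouse line and antibody and, within a group, by the 2 numbers of their column. Lyve1 mice gave 4 HA and 4 IgG libraries 12 h after an intraperitoneal injection of 2.5 mg/kg lipopolysaccharide (LPS), a bacterial cell wall component that triggers systemic inflammation. Without LPS, each line gave 6 HA and 6 IgG libraries (steady state). Every mouse carried 1 split-Cre pair and the Ribo-tag allele, IgG controls included. The age of the mice is not given, and nothing in the labels says which libraries come from separate animals, so that p-values measure the spread between these libraries. Another 4 libraries, of Sall1 mice after LPS, were not analysed here.

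Apoe encodes apolipoprotein E, the main lipid carrier of the brain, which astrocytes and microglia secrete in lipoprotein particles. Lrp1, a large endocytic receptor of the low-density lipoprotein receptor family, takes these particles up in neurons, glia and macrophages, and Trem2, a receptor of microglia and other myeloid cells, binds them too. In mouse models of amyloid pathology, microglia around plaques pass through a change that depends in part on Trem2. In it, Apoe, Cd9, Cd63 and Spp1 rise while homeostatic genes such as Tmem119 fall. Cd9 and Cd63 are tetraspanins, membrane organisers of the cell surface and of late endosomes and lysosomes, and Spp1 encodes osteopontin, a secreted ligand of integrins and of Cd44.

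The stretches upstream of the ligand, of the tetraspanin that differed between the lines and of the gene that moved furthest after LPS are shown, because these genes differ in the letters around their starts. RefSeq sequence on GRCm38.p6 matched all 5 symbols, while the counts were made on mm9, so no coordinate below comes from the count tables. Each line holds the 250 bases before a gene's first listed start, 5′ to 3′ on the gene's strand, with matches to any of 7 searched motifs in capitals. The windows are chr7:19699189-19699438 on the minus strand for Apoe (first of 3 listed starts), chr6:125494761-125495010 on the minus strand for Cd9, and chr5:104434861-104435110 on the plus strand for Spp1 (first of 2 listed starts).
Apoe: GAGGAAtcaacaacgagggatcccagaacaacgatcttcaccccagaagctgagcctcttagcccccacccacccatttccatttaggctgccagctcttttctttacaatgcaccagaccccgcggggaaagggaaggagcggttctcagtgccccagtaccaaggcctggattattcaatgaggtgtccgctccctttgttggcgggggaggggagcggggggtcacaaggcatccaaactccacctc
Cd9: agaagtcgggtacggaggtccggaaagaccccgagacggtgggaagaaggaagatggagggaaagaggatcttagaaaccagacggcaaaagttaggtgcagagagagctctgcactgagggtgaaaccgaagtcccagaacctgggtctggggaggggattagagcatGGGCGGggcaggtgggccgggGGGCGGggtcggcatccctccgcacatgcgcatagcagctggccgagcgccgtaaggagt
Spp1: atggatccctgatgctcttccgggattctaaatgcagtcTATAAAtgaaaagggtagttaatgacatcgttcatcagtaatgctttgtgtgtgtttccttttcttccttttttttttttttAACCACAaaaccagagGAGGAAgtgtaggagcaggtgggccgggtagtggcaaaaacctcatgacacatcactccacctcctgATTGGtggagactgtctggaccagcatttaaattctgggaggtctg

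The Spp1 window held the letters TATAAA of a TATA box 211 bases before the start, the RUNX motif AACCACA at 129 bases, the PU.1 core GAGGAA at 113 bases and a CCAAT box (CCAAT, on the other strand) at 46 bases, and its share of G and C was 43.6%. The Cd9 window held GGGCGG (a GC box) at 2 places, and its share of G and C was 61.6%. The Apoe window held GAGGAA at its far end and had 57.2% G and C. Of the windows not printed, that of Cd63 held GAGGAA at 2 places and that of Lrp1 held 1 GC box. Over 32851 windows of the same length, 12.4% held the TATA letters, 4.4% the RUNX, 23.3% the PU.1, 33.8% the CCAAT and 32.7% the GC box letters, each counted on both strands. The letters TGANTCA (AP-1, in 6.75% of windows) and CACGTG (an E-box, in 6.02%) were in none of the 5 windows. Motifs were counted with overlaps allowed and were chosen with these genes in view, so a match here is only a description of the letters.

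Library totals ranged from 362063 to 1696679 counts. Tmem119, a microglial marker, averaged 241 ± 37.7 CPM (counts scaled to a common library size) in Sall1 HA libraries and 32.5 ± 8.65 CPM in Sall1 IgG libraries (SD, n = 6 each). Pf4, a marker of border macrophages, averaged 22.7 ± 7.98 CPM in Lyve1 HA libraries and 1.44 ± 0.48 CPM in Lyve1 IgG libraries. Lyve1 itself had 3 to 12 counts per Lyve1 HA library and 0 to 2 per Lyve1 LPS HA library, so the defining gene of that line was barely counted after LPS. The Sall1 gene had 7 to 27 counts per Sall1 HA and 6 to 21 per Sall1 IgG library and did not pass (log2 ratio 0.55 ± 0.31 SE, adjusted p = 0.28). Cx3cr1, the other driver, had 8 to 170 counts per Sall1 HA and 3 to 16 per Sall1 IgG library, and 5 to 18 per Lyve1 HA and 2 to 12 per Lyve1 IgG library. Rpl22, the tagged ribosomal gene, had log2 ratios of 0.066 in Sall1 and 0.19 in Lyve1 mice and did not pass. Sall1 IgG libraries 2-1 and 2-2 stood apart from the other steady-state IgG libraries on the second principal component, at 3.40 and 10.6, where the others lay at -19.5 or lower. Lyve1 LPS HA library 2-2 stood furthest out on the first, at 66.1. Counts of the Y-linked genes Ddx3y and Eif2s3y were 15 to 60 in every LPS library and 0 to 4 in every Lyve1 library at steady state, and Sall1 libraries held both kinds. The LPS effect therefore cannot be told apart from whatever that pattern marks.

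**Figure D1:**
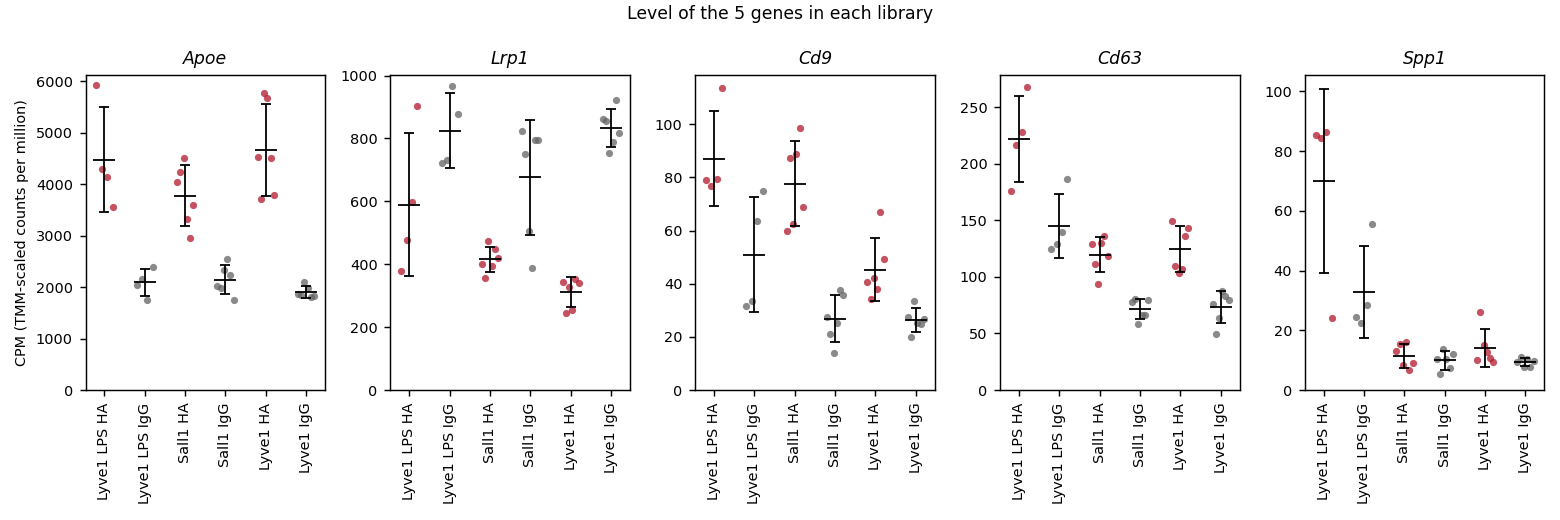
Levels of the 5 genes in CPM by library, 1 panel a gene, with each vertical axis on its own scale. Points are libraries (red HA, grey IgG) and black lines the mean ± SD of a group. Apoe lies higher in HA than in IgG libraries in every pair of groups, Lrp1 lies lower in HA libraries at steady state, and Spp1 stays at or below 26.2 CPM in every library except after LPS.

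At steady state, 4 of the 5 genes differed between HA and IgG precipitates in each line, and the direction for each gene was the same in Sall1 and Lyve1 mice. Apoe, Cd9 and Cd63 were higher in HA precipitates, Lrp1 was lower, and Spp1 did not pass the test. Over all 9619 genes tested, 9.80% passed in Sall1 mice (4.81% higher and 4.99% lower in HA) and 25.7% in Lyve1 mice (11.6% higher and 14.1% lower), so a call in Lyve1 mice was the more common event. Tests were edgeR's quasi-likelihood F test on counts, with Benjamini-Hochberg adjustment over all genes and a threshold of 0.05. Levels are CPM, which compare a gene across groups and not genes with each other.

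Apoe, the lipoprotein ligand, had 2948 to 4501 CPM in Sall1 HA libraries (median 3813), against 1750.1 to 2545 CPM in Sall1 IgG libraries (median 2127). It had 3707 to 5772 CPM in Lyve1 HA libraries (median 4522), against 1814 to 2095 CPM in Lyve1 IgG libraries (median 1860). HA and IgG libraries did not overlap in either line, as for 3.60% of all genes in Sall1 and 13.7% in Lyve1 mice. Apoe was 1.75-fold higher in Sall1 HA than in Sall1 IgG libraries (95% interval 1.47 to 2.08, adjusted p = 4.03e-05), and 2.42-fold higher in Lyve1 HA than in Lyve1 IgG libraries (2.03 to 2.88, adjusted p = 1.08e-07). Only 60 of the 9619 genes had a larger log2 ratio in the Lyve1 comparison. IgG precipitates alone thus carried much Apoe RNA in both lines, which is the background that the ratio is set against. In bulk precipitates like these, fewer cells of a type and less RNA per cell cannot be told apart.

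Some abundant transcripts of other cell types were higher in HA precipitates too. The summed level of the fibroblast list (8 of 9 markers listed in both tables, none at 0 counts over a group) was 2900 to 3566 CPM in Sall1 HA and 1814 to 2337 CPM in Sall1 IgG libraries, and 3096 to 3934 CPM in Lyve1 HA and 1893 to 2298 CPM in Lyve1 IgG libraries. The choroid plexus and ependyma list (9 of 9 listed, none at 0) summed to 2463 to 3294 CPM in Sall1 HA and 1458 to 1884 CPM in Sall1 IgG libraries, and to 2126 to 3297 CPM in Lyve1 HA and 1159 to 1822 CPM in Lyve1 IgG libraries. Each sum was mostly 1 gene: Ptgds, a prostaglandin D synthase, averaged 2908 ± 216 CPM in Sall1 HA and 1898 ± 189 CPM in Sall1 IgG libraries, and Ttr, the transthyretin of the choroid plexus, averaged 2483 ± 339 CPM in Sall1 HA and 1346 ± 135 CPM in Sall1 IgG libraries (SD, n = 6 each). By the test per gene, 2 of 7 fibroblast and 1 of 8 choroid plexus markers were higher in Sall1 HA libraries, and 3 of 7 and 1 of 8 in Lyve1 HA libraries. Over all genes, 4.81% were higher in Sall1 and 11.6% in Lyve1 HA libraries. The choroid plexus count in Lyve1 mice is near that share. The log2 ratios of other markers of these lists were below 0 without passing in Sall1 mice, such as Pdgfra at -0.34 and Enpp2 at -0.44. Astrocyte markers (15 of 15 listed, none at 0), from the main producers of Apoe in brain, summed to 2096 to 2660 CPM in Sall1 HA and 1969 to 3153 CPM in Sall1 IgG libraries, and to 2232 to 3215 CPM in Lyve1 HA and 2405 to 3031 CPM in Lyve1 IgG libraries, and these ranges overlap. The neuron sums were 5752 to 7199 CPM in Sall1 HA and 6414 to 8589 CPM in Sall1 IgG libraries, and the oligodendrocyte sums 4432 to 5278 CPM in Sall1 HA and 4322 to 5899 CPM in Sall1 IgG libraries, with overlap. Their part in the Apoe difference was not tested.

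Lrp1, the receptor, was the only one of the 5 genes that was lower in HA precipitates. It had 357 to 472 CPM in Sall1 HA libraries (median 411), against 389 to 824 CPM in Sall1 IgG libraries (median 773), and these ranges overlap only through IgG library 2-2, which held 389 CPM. IgG library 2-1, at 505 CPM, lay above every HA library but below the other IgG libraries. Lrp1 had 245 to 352 CPM in Lyve1 HA libraries (median 333), against 754 to 922 CPM in Lyve1 IgG libraries (median 837), with no overlap. The log2 ratio was -0.72 ± 0.14 (SE) in Sall1 mice (adjusted p = 0.00125) and -1.44 ± 0.15 in Lyve1 mice (adjusted p = 1.26e-07). Without Sall1 IgG libraries 2-1 and 2-2 the Sall1 ratio was -0.93 (adjusted p = 1.94e-06).

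Cd9 showed the largest ratio of the 5 genes in Sall1 mice. It had 59.8 to 98.7 CPM in Sall1 HA libraries (median 78.0), against 13.9 to 37.7 CPM in Sall1 IgG libraries (median 26.3), a 2.82-fold difference (2.14 to 3.70, adjusted p = 2.46e-06). It had 34.4 to 67.0 CPM in Lyve1 HA libraries (median 41.5), against 19.8 to 33.5 CPM in Lyve1 IgG libraries (median 26.0), a 1.73-fold difference (1.30 to 2.30, adjusted p = 0.00462). Neither pair of groups overlapped, although the lowest Lyve1 HA library lay only just above the highest IgG one. Microglial markers (18 of 20 listed in both tables, none at 0 at steady state) summed to 2844 to 5404 CPM in Sall1 HA and 758 to 852 CPM in Sall1 IgG libraries. In Lyve1 mice they summed to 1137 to 1776 CPM in Lyve1 HA and 660 to 1013 CPM in Lyve1 IgG libraries, with 9 of 17 tested markers higher and 0 lower. Over all genes, 11.6% were higher and 14.1% lower there. Border macrophage markers (12 of 15 listed, none at 0) summed to 120.2 to 247 CPM in Lyve1 HA and 38.0 to 52.2 CPM in Lyve1 IgG libraries. The part of either list in the Cd9 differences was not tested.

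Cd63, the tetraspanin of late endosomes and lysosomes, was higher in HA precipitates by about the same factor in both lines. It had 94.0 to 136 CPM in Sall1 HA libraries (median 124), against 58.7 to 80.4 CPM in Sall1 IgG libraries (median 72.1), and the ratio was 1.66-fold (1.36 to 2.02, adjusted p = 0.000802). It had 104 to 149.7 CPM in Lyve1 HA libraries (median 123), against 49.1 to 87.1 CPM in Lyve1 IgG libraries (median 78.1), and the ratio was 1.68-fold (1.37 to 2.05, adjusted p = 0.00026). The groups did not overlap in either line.

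Spp1 was the one gene for which a difference was not detectable. It had 6.80 to 16.1 CPM in Sall1 HA libraries (median 11.2) and 5.30 to 13.9 CPM in Sall1 IgG libraries (median 10.4), a log2 ratio of 0.22 with a 95% interval of -0.33 to 0.77 (adjusted p = 0.671). It had 9.38 to 26.2 CPM in Lyve1 HA libraries (median 11.7) and 7.81 to 11.2 CPM in Lyve1 IgG libraries (median 9.56), a log2 ratio of 0.50 with an interval of -0.068 to 1.07 (adjusted p = 0.188). These levels rest on 6 to 24 counts per library, and the intervals reach up to 1.71-fold in Sall1 and 2.10-fold in Lyve1 mice, so depth limits the statement.

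Some of these calls in Sall1 mice were lost when libraries were left out or summed. When the 4 HA and 4 IgG Sall1 libraries with Y-linked counts were left out, Cd9 (log2 ratio 1.20, adjusted p = 0.0371) and Lrp1 (-0.87, adjusted p = 0.0234) still passed. Apoe (0.72, adjusted p = 0.0812) and Cd63 (0.81, adjusted p = 0.106) then did not, with 2 libraries left in each Sall1 group. When libraries sharing a first number were summed, Lrp1 had -0.72 (adjusted p = 0.0678). The 4 calls in Lyve1 mice held under every alternative run.

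The other genes of these pathways were described from lists, by counts and medians. Of 19 other tested genes of the disease-associated programme, 10 were higher and 0 lower in Sall1 HA than in Sall1 IgG libraries, with a median log2 ratio of 0.76 against -0.0055 over all genes. In Lyve1 mice, 9 were higher and 1 lower, with a median of 0.35 against 0.013. Over all genes, 4.81% were higher and 4.99% lower in Sall1 HA libraries, and 11.6% higher and 14.1% lower in Lyve1 HA libraries. Trem2 had a log2 ratio of 2.53 ± 0.18 in Sall1 mice (152 ± 38.8 CPM in HA and 26.2 ± 2.09 CPM in IgG libraries, adjusted p = 7.7e-12), and Tyrobp, its signalling adaptor, had 1.86 ± 0.22. The lysosomal protease gene Ctsz had 1.35 ± 0.16 there. In Lyve1 mice the list was led by Lyz2, the lysozyme of macrophages and monocytes (2.46 ± 0.29, adjusted p = 7.35e-07), and B2m, the light chain of MHC class I (1.56 ± 0.29, adjusted p = 0.000237). The Sall1 count was 3 without the Sall1 libraries with Y-linked counts, and the Lyve1 count was 5 with libraries summed by first number. The list was drawn from studies of microglia, and its genes of the homeostatic state were higher in Sall1 HA libraries as well: 9 of 11 tested were higher and 0 lower, led by Tmem119 at 2.89 ± 0.19 and Selplg, a ligand of selectins, at 2.15 ± 0.15.

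Lipoprotein receptors other than Lrp1 were mostly not enriched. Of 14 tested, 1 was higher and 1 lower in Sall1 HA than in Sall1 IgG libraries (median log2 ratio -0.28), and 0 were higher and 4 lower in Lyve1 HA than in Lyve1 IgG libraries (median -0.37). The higher one was Trem2. Over all genes, 9.80% passed in Sall1 mice (4.99% lower) and 25.7% in Lyve1 mice (14.1% lower). Sorl1, a sorting receptor of neurons and glia, was lower in both lines (-0.82 ± 0.16 in Sall1 and -0.77 ± 0.17 in Lyve1 mice), and Sort1, the sortilin that also binds Apoe, was lower in Lyve1 mice (-0.70 ± 0.16, adjusted p = 0.00199). Among Lrp1 partners, Calr, the chaperone calreticulin that also acts with Lrp1 at the cell surface, was lower in Lyve1 HA than in Lyve1 IgG libraries (-0.86 ± 0.16, adjusted p = 0.000277). Lrpap1, the chaperone that escorts Lrp1 through the secretory pathway, was higher there (0.49 ± 0.14, adjusted p = 0.0103). None of the 6 partners tested passed in Sall1 mice, where Calr had -0.49 ± 0.16 (adjusted p = 0.051).

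Apolipoproteins and cholesterol exporters were counted in the same way, and their counts are to be read against the 9.80% of all genes that passed in Sall1 and the 25.7% in Lyve1 mice. Of 4 apolipoprotein-list genes other than Apoe, Apod was higher in Lyve1 HA than in Lyve1 IgG libraries (0.69 ± 0.14, adjusted p = 0.000341), and none passed in Sall1 mice. Of 10 genes of cholesterol efflux and storage, 2 were lower in Sall1 HA and 4 in Lyve1 HA libraries and 0 were higher in either. The transporter Abcg4, found mainly in neurons and astrocytes, was lower in both (-0.78 ± 0.16 in Sall1 and -1.10 ± 0.17 in Lyve1 mice), as was Abcg1 (-0.74 ± 0.20 and -0.67 ± 0.21).

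Among 16 tetraspanins other than Cd9 and Cd63, 4 were higher and 0 lower in Sall1 HA libraries (median log2 ratio 0.37), and 5 were higher and 0 lower in Lyve1 HA libraries (median 0.35). Over all genes, 9.80% passed in Sall1 mice (4.81% higher, median -0.0055) and 25.7% in Lyve1 mice (11.6% higher, median 0.013). Cd37, a tetraspanin of leukocytes, had 1.68 ± 0.29 in Sall1 mice (adjusted p = 0.00021), and Cd82 had 0.60 ± 0.13 (adjusted p = 0.00325). Tspan31 had 0.75 ± 0.22 and Tspan13 had 0.69 ± 0.20 in Lyve1 mice. The count was 0 in Sall1 mice without the libraries with Y-linked counts and 1 in Lyve1 mice with libraries summed. Itga3, an integrin chain that pairs with tetraspanins, was lower in HA precipitates of both lines (-0.76 ± 0.23, adjusted p = 0.0289 in Sall1 and -1.27 ± 0.23, adjusted p = 0.00018 in Lyve1 mice). Of 4 tested receptor chains for osteopontin, Itgb5 was higher in Sall1 HA libraries (1.11 ± 0.15, adjusted p = 6.31e-06), and none passed in Lyve1 mice.

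**Figure D2:**
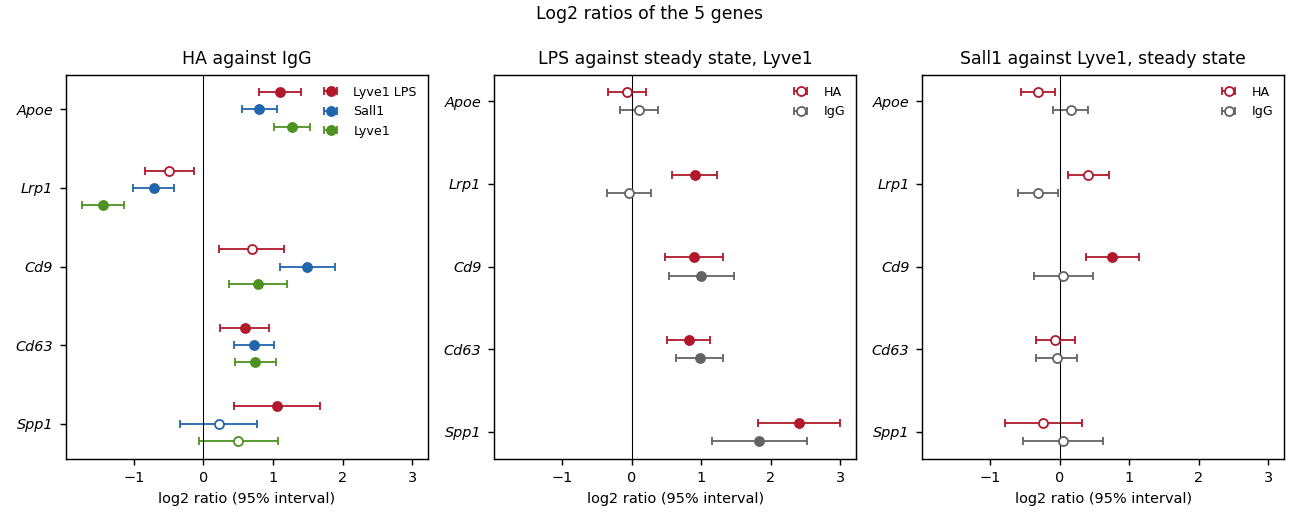
Log2 ratios of the 5 genes with 95% intervals: HA against IgG in Lyve1 LPS, Sall1 and Lyve1 mice (left), LPS against steady state in Lyve1 HA and IgG libraries (middle), and Sall1 against Lyve1 in HA and IgG libraries (right). Filled points have an adjusted p under 0.05. Lrp1 lies below 0 in all 3 HA against IgG comparisons, with an open point after LPS, and Spp1 has the largest ratios after LPS in both precipitates.

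Between the lines, the question was whether ribosome-bound RNA of the labelled microglia and of the labelled border macrophages differed in these genes. Only Cd9 passed, at 1.69-fold higher in Sall1 HA than in Lyve1 HA libraries (1.30 to 2.21, adjusted p = 0.0309), where 1.40% of all genes passed (1.24% higher and 0.166% lower). Its groups overlap, since the lowest Sall1 HA library held 59.8 CPM and the highest Lyve1 HA library 67.0 CPM. The call was near the threshold and was lost without any 1 of 7 libraries: Lyve1 HA 1-1 (log2 ratio 0.73), 1-2 (0.68), 2-1 (0.72) or 2-2 (0.70), or Sall1 HA 1-2 (0.70), 2-2 (0.69) or 3-1 (0.67), with adjusted p between 0.0504 and 0.109. The summed microglial markers were 2844 to 5404 CPM in Sall1 HA and 1137 to 1776 CPM in Lyve1 HA libraries. Their part in the Cd9 difference was not tested.

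The other 4 genes did not pass in HA precipitates. Lrp1 had a log2 ratio of 0.41 ± 0.15 (adjusted p = 0.179), although the 6 Sall1 HA libraries (357 to 472 CPM) all lay above the 6 Lyve1 HA libraries (245 to 352 CPM); 1.59% of all genes had groups that did not overlap. Apoe had -0.31 ± 0.12 (adjusted p = 0.215), Cd63 -0.064 with an interval of -0.35 to 0.22, and Spp1 -0.24 with an interval of -0.79 to 0.32. With a term for Y-linked counts, both Apoe (-0.47, adjusted p = 0.017) and Lrp1 (0.56, adjusted p = 0.0189) passed. They also passed without the Sall1 libraries with Y-linked counts (-0.51, adjusted p = 0.0493, and 0.48, adjusted p = 0.0453).

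IgG precipitates of the lines gave 0 calls among the 5 genes and 0 among all 9619 genes (0.00%) by edgeR, where 646 genes had an unadjusted p under 0.05. Lrp1 came nearest, at -0.31 ± 0.14 (adjusted p = 0.702), with 389 and 505 CPM in the Sall1 IgG libraries that stood apart, and its ratio was -0.092 without them. The intervals for Apoe were -0.092 to 0.41 and for Cd63 -0.34 to 0.25. The difference between the lines in the HA to IgG ratio itself also gave no call among the 5, where 0.218% of the genes tested were called, 0.208% in the positive and 0.0104% in the negative direction. For Lrp1 it was 0.72 ± 0.20 (adjusted p = 0.294), for Apoe -0.47 ± 0.17 (adjusted p = 0.682) and for Cd9 0.71 ± 0.28 (adjusted p = 0.76). The larger Apoe and Lrp1 ratios of Lyve1 mice were therefore not shown to differ from those of Sall1 mice.

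Of 19 other genes of the disease-associated programme, 4 were higher and 2 lower in Sall1 HA than in Lyve1 HA libraries, with a median of 0.085 against 0.0062 over all genes. Over all genes, 1.24% were higher and 0.166% lower there. Trem2 (2.05 ± 0.18, adjusted p = 2.16e-09), Tyrobp (1.21 ± 0.21) and Ctsd, the lysosomal protease cathepsin D (0.97 ± 0.13, adjusted p = 1.99e-05), were higher, and Fth1, the ferritin heavy chain (-0.54 ± 0.11, adjusted p = 0.00649), was lower. The HA to IgG ratio was higher in Sall1 than in Lyve1 mice for 0.208% of all genes. Trem2 and Ctsd were the 2 listed genes for which it was (2.17 ± 0.26 and 1.10 ± 0.19). Itgb5, the integrin chain that binds osteopontin, was higher in Sall1 HA libraries as well (1.09 ± 0.15, adjusted p = 4.97e-05). Cd37 joined Cd9 as the other of 18 tested tetraspanins that passed (1.33 ± 0.29, adjusted p = 0.00858).

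LPS was compared with steady state in Lyve1 mice. In HA precipitates 4 of the 5 genes were higher after LPS, where 17.3% of all 9680 genes tested passed (9.37% higher and 7.93% lower). Spp1 had the largest ratio. Lrp1 (log2 ratio 0.91), Cd9 (0.90) and Cd63 (0.82) differed by less than their errors, and Apoe did not pass. In IgG precipitates Spp1, Cd9 and Cd63 were higher too, where 13.9% of genes passed (6.54% higher and 7.33% lower). Lrp1 was the one member whose change differed between the precipitates by the test of that difference.

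Spp1 had 85.4, 84.5, 86.5 and 23.95 CPM in the LPS HA libraries 1-1, 1-2, 2-1 and 2-2, against 9.38 to 26.2 CPM in Lyve1 HA libraries (median 11.7). Of the LPS libraries 3 lay far above every steady-state library, and the last fell inside their range. Spp1 was 5.30-fold higher (3.52 to 7.96, adjusted p = 2.03e-07), and without library 2-2 the log2 ratio was 2.67, against 2.41 with it. In IgG precipitates it had 24.4, 22.4, 28.5 and 55.5 CPM after LPS, against 7.81 to 11.2 CPM at steady state (median 9.56), a 3.58-fold difference with no overlap (2.24 to 5.72, adjusted p = 0.00018). HA library 2-2 was thus the lowest of its group and IgG library 2-2 the highest of its own. In IgG precipitates 13.2% of all genes had groups that did not overlap. The Spp1 levels there rest on 8 to 54 counts per library after LPS and 7 to 15 at steady state. The change in the 2 precipitates was not shown to differ (log2 difference 0.57 ± 0.46, adjusted p = 0.5).

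Lrp1 had 379, 477, 597 and 903 CPM in the LPS HA libraries, against 245 to 352 CPM in Lyve1 HA libraries (median 333). Every LPS library lay above every steady-state one, and 10.5% of all genes had groups that did not overlap. Lrp1 was 1.88-fold higher (1.502 to 2.34, adjusted p = 9.14e-05). In IgG precipitates it had 721, 730.3, 967 and 879 CPM after LPS, against 754 to 922 CPM at steady state (median 837), and the log2 ratio was -0.033 ± 0.16 (adjusted p = 0.921). The HA to IgG ratio of Lrp1 was therefore higher after LPS, by 1.92-fold (1.40 to 2.63, adjusted p = 0.0157), where 3.64% of genes passed (2.10% higher and 1.54% lower). That call was lost without LPS HA library 2-2 (log2 ratio 0.67, adjusted p = 0.0574), LPS IgG library 1-1 (0.86, adjusted p = 0.0559) or LPS IgG library 1-2 (0.87, adjusted p = 0.0558), while the change within HA precipitates passed without each library in turn (0.65 without library 2-2).

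Cd9 had 78.9, 76.7, 79.3 and 114 CPM in the LPS HA libraries, against 34.4 to 67.0 CPM in Lyve1 HA libraries (median 41.5), with no overlap and a 1.87-fold difference (1.40 to 2.49, adjusted p = 0.00185). In IgG precipitates it had 31.5, 33.6, 63.5 and 74.96 CPM after LPS, against 19.8 to 33.5 CPM at steady state (median 26.0). Libraries 2-1 and 2-2 lay well above all steady-state IgG libraries, library 1-2 was level with the highest of them and library 1-1 lay within their range. The 2.004-fold difference (1.45 to 2.77, adjusted p = 0.00235) was lost without library 2-2 (log2 ratio 0.75, adjusted p = 0.0617). Cd63 had 176, 217, 228 and 268 CPM in the LPS HA libraries, against 104 to 149.7 CPM in Lyve1 HA libraries, a 1.76-fold difference (1.42 to 2.19, adjusted p = 0.000214). It had 125, 129, 140.0 and 187 CPM in the LPS IgG libraries, against 49.1 to 87.1 CPM in Lyve1 IgG libraries, a 1.97-fold difference (1.56 to 2.48, adjusted p = 4.69e-05). Both tetraspanins moved in the same direction in HA and IgG precipitates, and the differences between precipitates were -0.10 ± 0.30 for Cd9 (interval -0.72 to 0.51) and -0.16 ± 0.22 for Cd63 (interval -0.61 to 0.30).

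Apoe had 5919, 4291, 4133 and 3546 CPM in the LPS HA libraries, against 3707 to 5772 CPM in Lyve1 HA libraries (median 4522), and these ranges overlap almost wholly. The log2 ratio was -0.064 with an interval of -0.34 to 0.21 (adjusted p = 0.783), or a fold of 0.96 (0.79 to 1.16). In IgG precipitates it had 2048, 2163, 1749 and 2397 CPM after LPS, against 1814 to 2095 CPM at steady state (median 1860), a log2 ratio of 0.11 with an interval of -0.16 to 0.39 (adjusted p = 0.647).

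**Figure D3:**
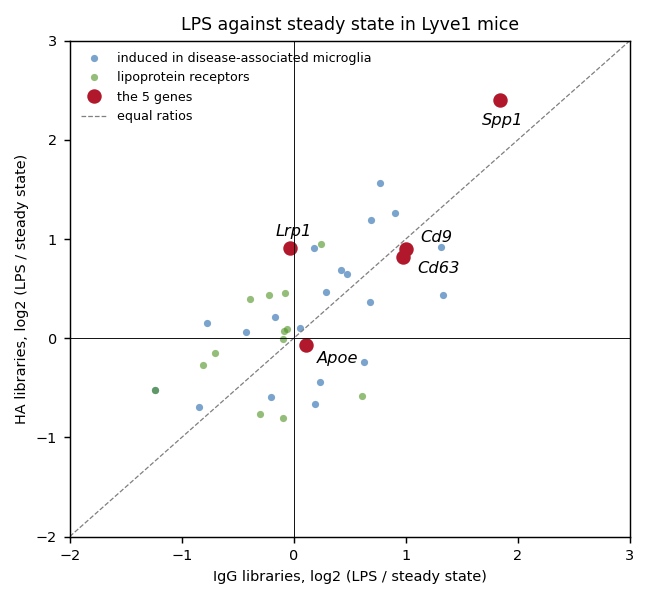
Log2 ratio of LPS over steady state in HA precipitates (vertical) and IgG precipitates (horizontal) of Lyve1 mice, for genes of the disease-associated programme (blue), lipoprotein receptors (green, with Trem2 in both) and the 5 genes named in red. The dashed line marks equal ratios. Cd9 and Cd63 lie near the line with both ratios above 0, and Apoe lies near 0 on both axes. Spp1 lies above the line at 2.41 in HA and 1.84 in IgG precipitates, a difference that did not pass. Lrp1 lies above the line at 0.91 in HA and -0.033 in IgG precipitates.

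After LPS, HA and IgG precipitates were compared as at steady state. Of the 5 genes, 3 were higher in LPS HA than in LPS IgG libraries, where 9.70% of all genes passed (5.32% higher and 4.38% lower). Apoe was 2.14-fold higher with no overlap (1.74 to 2.64, adjusted p = 9.39e-06), close to its ratio at steady state. Cd63 was 1.51-fold higher (1.18 to 1.92, adjusted p = 0.0242) and Spp1 2.09-fold higher (1.36 to 3.20, adjusted p = 0.0221), both with overlapping libraries. Cd9 had a log2 ratio of 0.69 ± 0.23 (adjusted p = 0.0526) with no overlap, as had 15.2% of all genes, and Lrp1 had -0.49 ± 0.17 (adjusted p = 0.0642).

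The calls other than that of Apoe changed with single libraries, for Spp1 with the groups fitted together and for Cd63 with libraries summed. Cd63 did not pass without LPS HA 1-2 (log2 ratio 0.61), 2-1 (0.58) or 2-2 (0.49), or LPS IgG 1-1 (0.52), 1-2 (0.55) or 2-1 (0.57). With libraries sharing a first number summed, Cd63 did not pass either (0.57, adjusted p = 0.101). Spp1 did not pass without LPS HA 1-2 (0.97) or 2-1 (0.95), or LPS IgG 1-1 (0.93), 1-2 (0.96) or 2-1 (0.98), nor when the LPS HA and IgG groups were fitted alone (1.06, adjusted p = 0.0866). Cd9 passed without LPS HA 1-1 (0.73, adjusted p = 0.0496) or LPS IgG 2-2 (0.96, adjusted p = 0.0157), and Lrp1 without LPS HA 2-2 (-0.77, adjusted p = 0.00135).

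Markers of other cells moved with LPS as well, some lists up and others down. The list of monocytes and neutrophils (5 of 10 listed in both tables, none at 0) summed to 828 to 1443 CPM in LPS HA and 8.53 to 70.2 CPM in Lyve1 HA libraries, and to 313 to 507 CPM in LPS IgG and 0.65 to 19.0 CPM in Lyve1 IgG libraries. Most of the sum after LPS was Lcn2, a gene that inflamed endothelium and glia also express, at 998 ± 210.4 CPM in LPS HA and 1.08 ± 1.41 CPM in Lyve1 HA libraries. Endothelial markers (8 of 10 listed, none at 0) summed to 273 to 346 CPM in LPS HA and 80.2 to 154 CPM in Lyve1 HA libraries. Microglial markers summed to 2072 to 2672 CPM in LPS HA and 1137 to 1776 CPM in Lyve1 HA libraries, with 1 of the list at 0 in LPS IgG libraries, and fibroblast markers to 3997 to 5323 CPM in LPS HA and 3096 to 3934 CPM in Lyve1 HA libraries. By the test per gene, 4 of 15 tested microglial markers were higher and 0 lower in HA precipitates. In IgG precipitates 4 were higher and 4 lower, where 6.54% of all genes were higher and 7.33% lower. Tmem119 averaged 49.6 ± 2.95 CPM in LPS HA and 49.1 ± 11.8 CPM in Lyve1 HA libraries (SD, n = 4 and 6). Of 7 fibroblast markers 3 were higher and 0 lower in HA precipitates, and of 7 endothelial markers 5 were higher and 1 lower. Astrocyte markers summed to 3125 to 3447 CPM in LPS HA and 2232 to 3215 CPM in Lyve1 HA libraries, with 6 of 15 tested higher and 1 lower. Over all genes, 9.37% were higher and 7.93% lower in HA precipitates. Of 11 tested oligodendrocyte markers 0 were higher and 6 lower in LPS HA than in Lyve1 HA libraries (median log2 ratio -0.81), and the list summed to 3616 to 5014 CPM in LPS HA and 4265 to 7518 CPM in Lyve1 HA libraries. Of 6 mural cell markers 1 was higher and 3 lower (median -0.59), and of 12 neuron markers 0 were higher and 2 lower (median -0.36), with neuron sums of 5140 to 6743 CPM in LPS HA and 6718 to 7329 CPM in Lyve1 HA libraries. Their part in the changes of the 5 genes was not tested.

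Of 20 other tested genes of the disease-associated programme, 4 were higher and 0 lower in LPS HA than in Lyve1 HA libraries (median log2 ratio 0.29 against -0.016 over all genes), and 5 were higher and 2 lower in IgG precipitates (median 0.26 against -0.0093). Over all genes, 9.37% were higher and 7.93% lower in HA, and 6.54% higher and 7.33% lower in IgG precipitates. The count of lower genes in IgG precipitates is near that share. In HA precipitates the higher genes of the list included the lysosomal proteases Ctsl (1.19 ± 0.15, adjusted p = 2.88e-07) and Ctsz (1.26 ± 0.16, adjusted p = 7.15e-07) and Csf1, a growth factor of macrophages (1.56 ± 0.28, adjusted p = 0.000124). The lower ones in IgG precipitates were Ctsd (-0.78 ± 0.13, adjusted p = 3.36e-05) and Trem2 (-1.24 ± 0.30, adjusted p = 0.00408), and Trem2 had 24.5 ± 8.10 CPM in LPS HA and 12.1 ± 3.88 CPM in LPS IgG libraries (SD, n = 4 each). Only Ctsd (0.93 ± 0.17) and Fth1 (-0.87 ± 0.17) of the list differed in the HA to IgG ratio between LPS and steady state, where 2.10% of all genes were higher and 1.54% lower. Between LPS HA and LPS IgG libraries, 7 of the 20 were higher and 1 lower, led by Cd68, a lysosomal glycoprotein of macrophages (2.14 ± 0.37, adjusted p = 0.000286), and that count was 4 without LPS IgG library 1-1. Over all genes, 5.32% were higher and 4.38% lower between these libraries.

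Of 13 lipoprotein receptors other than Lrp1, 2 were higher and 1 lower in LPS HA than in Lyve1 HA libraries (median -0.0069), and 0 were higher and 2 lower in IgG precipitates. These shares are near those of all genes, 17.3% in HA and 13.9% in IgG precipitates. Lrp5, a receptor of Wnt signals, had 0.95 ± 0.30 (adjusted p = 0.0241), Sort1 had 0.40 ± 0.13 (adjusted p = 0.0282), and Lrp11 had -0.80 ± 0.24 (adjusted p = 0.0188). The count of higher receptors was 0 without Lyve1 HA library 1-2. Sort1 was the other receptor whose HA to IgG ratio was higher after LPS (0.79 ± 0.18, adjusted p = 0.0134), and it was lower in IgG precipitates (-0.39 ± 0.13, adjusted p = 0.0432). Calr was lower in IgG precipitates by a wider margin, with a log2 ratio of -1.34 ± 0.14, and had 1.24 ± 0.20 for the HA to IgG ratio (adjusted p = 0.00115). Unlike Sort1, it did not pass in LPS HA over Lyve1 HA libraries. Lrpap1 was higher in LPS HA than in Lyve1 HA libraries (0.50 ± 0.14, adjusted p = 0.0115) and in LPS HA than in LPS IgG libraries (0.58 ± 0.16, adjusted p = 0.017).

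Tspan4, a tetraspanin of migrating cells, was the third of 18 tested tetraspanins that rose with LPS beside Cd9 and Cd63, with 182 ± 33.2 CPM in LPS HA and 69.5 ± 13.9 CPM in Lyve1 HA libraries (1.39 ± 0.20, adjusted p = 4.69e-06). It rose by 1.45 ± 0.20 in IgG precipitates. Without Cd9 and Cd63, 1 of 16 tested tetraspanins was higher and 0 lower in either precipitate. Over all genes, 9.37% were higher in HA and 6.54% in IgG precipitates, so this count is near the share of all genes. Timp1, an inhibitor of metalloproteases that binds Cd63, had the largest ratio of the lists of partners, with 6.29 ± 0.44 in HA (adjusted p = 4.33e-13) and 6.76 ± 0.59 in IgG precipitates (adjusted p = 1.56e-10). Itga3 (0.78 ± 0.21) and Itga6 (1.30 ± 0.40) were higher in LPS HA than in Lyve1 HA libraries. Itgb5, of the osteopontin receptors, was higher there too (0.57 ± 0.16, adjusted p = 0.0125), and in LPS HA than in LPS IgG libraries (0.73 ± 0.19, adjusted p = 0.00936).

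The genes whose pattern over the 24 steady-state libraries was most like each member were sought among 9279 genes, by the root mean square difference of centred log2 CPM. These libraries are the ones compared above, so likeness restates the same values. Cd9 lay nearest to Rab3il1 (0.331), Grn (0.3498), the secreted progranulin, and Ctsz (0.379), and its own root mean square was 0.694. Rab3il1 (1.96 ± 0.21) and Grn (1.496 ± 0.15) were higher in Sall1 HA than in Sall1 IgG libraries. Lrp1 lay nearest to Zzef1 (0.165), Rptor (0.191), a subunit of the mTOR complex, and Zer1 (0.194), all of which were lower in HA than in IgG libraries of both lines (-1.36 ± 0.18 for Zzef1 in Lyve1 mice). Cd63 lay nearest to Sh3bgrl3 (0.186), Dctpp1 (0.191) and Ptgds (0.205), a gene of meningeal and choroid plexus cells. Apoe lay nearest to Cfl1 (0.243), the actin-severing cofilin, Chchd10 (0.251) and Zfp428 (0.266), at an own value of 0.559. The nearest genes to Spp1 were Pdcd6 (0.302), Pik3r1 (0.306) and Trappc4 (0.312), close to its own spread of 0.404.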

How the data were processed

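RNA precipitated from mouse hemibrain homogenates was sequenced as MARS-seq libraries, a 3′-end method, per the labels' protocols. Gene assignment used mm9, per the submitters' processing notes, and the aligner and counter are not given in the sources used here. Values in the deposited tables are raw counts of a gene in a library, per the file headers, and their 28 library columns of no sample here were left out. The log2 fold changes and adjusted p-values that the authors deposited beside the counts were not used for any test. The 12 libraries in both tables had 0 differing counts, and no pair of libraries was identical.

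Each table was analysed on its own in R 4.3.3. The low-count filter was filterByExpr with the 4 groups of the table, a minimum count of 10 and a minimum total of 15. It kept 9619 genes of 12580 in the steady-state table and 9680 of 12403 in the Lyve1 table, with 99.04% of counts in each. edgeR 4.0.16 (TMM factors, robust quasi-likelihood) fitted the 4 groups of a table together, at 20 and 16 residual degrees of freedom. The common biological coefficients of variation were 0.21 and 0.182. Adjusted p-values are Benjamini-Hochberg over all genes of a table. The SE is the log2 ratio over the square root of F, and intervals are 95%. CPM use TMM factors over all 32 libraries and the 12173 shared genes, and levels across the tables rest on that scale. The fit was tested on simulated data.

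The 5 members and all 20 gene lists were chosen with earlier results of these data known. Besides the members, driver genes and Y-linked genes, the text names up to 4 genes per list and comparison with the smallest p among those that passed (up to 2 where none passed), and 3 nearest genes per member. Other genes of a list, and markers named beside a sum, were chosen after their values were seen. Lists were described by counts and medians, with no set test.

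Same-numbered HA and IgG libraries were checked for pairing: the correlation of their deviations from group means ran from -0.099 to 0.35, so the numbers were not taken to pair libraries. The alternatives were DESeq2 1.42.0 (Wald test and size factors), limma-voom (limma 3.58.1), totals without TMM, no filter, only the groups compared, replicate blocks, low-total libraries (under 0.5 of the median total) left out, each library left out in turn, libraries summed by first number, and, among Sall1 libraries, those with at least 10 Y-linked counts or a first number of 3 left out and a term for Y-linked counts. Leaving out Sall1 IgG libraries 2-1 and 2-2 was chosen after seeing the data.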

Additional observations from a re-analysis of the deposited data

Results flagged for a closer look

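In LPS HA library 2-2 of Lyve1 mice, Cd9 had 113.8 CPM, outside a group whose other libraries held 76.7 to 79.3 CPM. In the same library Spp1 had 23.95 CPM, where the other 3 libraries held 84.5 to 86.5 CPM. This library also lay furthest out on the first principal component, at 66.1. Its Spp1 level rests on 16 counts. In Lyve1 HA library 1-2, Spp1 had 26.2 CPM, where the other libraries of the group held 9.38 to 15.2 CPM. Without that library the log2 ratio of Spp1 in Lyve1 HA over Lyve1 IgG was 0.30 (adjusted p = 0.467), and the ratio of LPS HA over Lyve1 HA was 2.60 (adjusted p = 5.86e-08). Of 30 sets of 1 gene in 1 group, 3 held such a library, and chance marks about 1 in 20.

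The HA to IgG ratio of Lrp1 differed between LPS and steady state by the interaction test, at a log2 difference of 0.94 ± 0.22 (adjusted p = 0.0157). The HA to IgG log2 ratio was -0.49 after LPS and -1.44 at steady state in Lyve1 mice.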

How the results depend on the processing

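Over 45 results (5 genes in 9 comparisons) and 1120 alternative values of them, 1032 kept their direction and their side of the threshold, 35 lost a call, 15 gained one and 38 turned direction. The 4 calls in Lyve1 HA over Lyve1 IgG and the 4 in LPS HA over Lyve1 HA passed under every alternative run. Members passing in Sall1 HA over Sall1 IgG numbered 2 without libraries with Y-linked counts, against 4. In Sall1 HA over Lyve1 HA they numbered 0 with libraries summed by first number, without Sall1 libraries of first number 3 and without libraries of low total, 2 without Sall1 IgG libraries 2-1 and 2-2, and 3 with a Y-linked term or without Y-linked Sall1 libraries, against 1, and 0 to 1 with each library left out. In LPS HA over LPS IgG they numbered 1 without libraries of low total, against 3, and 1 to 4 with each library left out. For the HA to IgG ratio of LPS over steady state they numbered 0 with libraries summed or without low totals, against 1, and 0 to 1 with each library left out. Where values turned direction, none passed on either side. In Sall1 IgG over Lyve1 IgG, Cd9 was -0.0065 by limma-voom and -0.24 without first number 3, Spp1 was -0.099 by limma-voom, -0.21 with the Y-linked term and -0.089 without IgG 2-1 and 2-2, Apoe was -0.0025 and Cd63 0.0034 with that term, and Cd63 was 0.031 without IgG 2-1 and 2-2. With each library left out these ran from -0.054 to 0.18 (Cd9), -0.044 to 0.18 (Spp1) and -0.12 to 0.020 (Cd63). Without Y-linked Sall1 libraries, Spp1 was -0.28 in Sall1 HA over Sall1 IgG, and Cd63 was 0.025 in Sall1 HA over Lyve1 HA and 0.066 for the HA to IgG ratio of Sall1 over Lyve1, which was 0.0062 with libraries summed and -0.090 to 0.053 with each left out. Lrp1 in LPS IgG over Lyve1 IgG was 0.039 without low totals and -0.12 to 0.049 with each library left out, Apoe in LPS HA over Lyve1 HA was -0.23 to 0.044, and the LPS over steady state difference in the HA to IgG ratio was -0.31 to 0.17 for Cd9 and -0.25 to 0.0074 for Cd63. The cause was not tested. The library numbers were not taken to pair libraries. With the replicate number as a block across groups, 5 members passed in LPS HA over LPS IgG, and with a block within line and treatment Lrp1 (-0.55, adjusted p = 0.00802) and Cd9 (0.78, adjusted p = 0.0095) passed, Spp1 did not (1.01, adjusted p = 0.0608), and the Cd9 difference in the HA to IgG ratio was 0.019. A block changed no other member's call. Over all genes, the alternatives gave 69 to 1317 genes against 943 in Sall1 HA over Sall1 IgG, 1005 to 3067 against 2473 in Lyve1 HA over Lyve1 IgG, 29 to 1775 against 135 in Sall1 HA over Lyve1 HA, 0 to 322 against 0 in Sall1 IgG over Lyve1 IgG, 443 to 1336 against 939 in LPS HA over LPS IgG, 1044 to 2325 against 1675 in LPS HA over Lyve1 HA, 883 to 1767 against 1343 in LPS IgG over Lyve1 IgG, 0 to 33 against 21 for the ratio of the lines and 71 to 890 against 352 for that of LPS. A term for Y-linked counts could not be fitted in the Lyve1 table, where those counts follow the treatment. Spp1 is limited by depth at steady state, with 6 to 24 counts per library, and it had 8 to 54 counts per LPS IgG library.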

Other observations

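Around Apoe, other genes of lipid handling changed after LPS in Lyve1 mice in both HA and IgG precipitates. Apod, an apolipoprotein of the lipocalin family that glia and fibroblasts make, had 1067 ± 291 CPM in LPS HA and 203 ± 23.9 CPM in Lyve1 HA libraries (SD, n = 4 and 6), a log2 ratio of 2.39 ± 0.15 (adjusted p = 1.05e-14), and 2.13 ± 0.15 in IgG precipitates (adjusted p = 7.28e-13). Pltp, which transfers phospholipids between lipoproteins, was lower in both precipitates (-0.93 ± 0.25, adjusted p = 0.00863 in HA and -1.48 ± 0.28, adjusted p = 0.000234 in IgG). Apoe, in the same libraries, did not pass in either.

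Of 15 tested genes of cholesterol synthesis, 4 were lower and 0 higher after LPS in HA precipitates (median log2 ratio -0.33 against -0.016 over all genes), and likewise 4 and 0 in IgG precipitates (median -0.40 against -0.0093). The counts of this paragraph are to be read against all genes. Of these, 9.37% were higher and 7.93% lower in HA, and 6.54% higher and 7.33% lower in IgG precipitates. Hmgcs1, an early enzyme of the pathway, had -1.04 ± 0.15 in HA (adjusted p = 6.72e-06) and -1.03 ± 0.16 in IgG precipitates (adjusted p = 9.64e-06), and Fdps, which makes farnesyl diphosphate, had -0.60 ± 0.15 in HA (adjusted p = 0.00458) and -0.75 ± 0.16 in IgG precipitates (adjusted p = 0.00155). Abca7, a lipid transporter of the ABC family, was higher in both (1.49 ± 0.24, adjusted p = 3.3e-05 in HA and 0.82 ± 0.24, adjusted p = 0.018 in IgG). Of the 9 tested genes of cholesterol efflux and storage that include it, 1 was higher and 0 lower in HA precipitates, and 1 was higher and 2 lower in IgG precipitates, where Abcg4 had -0.88 ± 0.15 and Cyp46a1, a cholesterol hydroxylase of neurons, -0.66 ± 0.13. The LPS and steady-state libraries differ in Y-linked counts, as described above for the 5 genes.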
